A study of Mus musculus with 4 samples.

Results

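Nuclear genes whose mouse symbols begin with Nduf encode the subunits of respiratory complex I that are made outside the mitochondrion, together with part of the machinery that assembles the complex. They were followed here in thigh skeletal muscle of ageing mice. A gene was taken as a member when its symbol begins with Nduf, when it is no named pseudogene (-ps), and when the annotation does not join it to a neighbour. This gave 47 of 40137 gene units, 44 of them protein-coding and 3 (Ndufa11b, Ndufb4c and Ndufs6b) processed pseudogenes in the GENCODE M21 annotation, with 514 of 374286 exonic bins (stretches of exon cut at every annotated boundary). Ndufb2, which shares a unit with Adck2, and Ndufb8, which shares one with Gm20538 and Sec31b, were left out because their reads could not be assigned to a single gene.

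RNA was sequenced from male C57BL/6J mice, an inbred strain, labelled wild-type and untreated, with 3 libraries from 28 months of age and 1 from 18 months. The aim was a check, on the same samples, of splicing differences found by exon arrays. The labels name thigh muscle as the tissue, whereas their extraction text describes keratinocytes of the skin. The 9 fast fibre markers summed to 181165, 97834 and 183256 CPM (counts scaled to a common library size after TMM normalisation) for 28-month replicates 1, 2 and 3 and to 113368 CPM in the 18-month library, while 6 keratinocyte markers summed to at most 1.15 CPM in any library. Libraries held 65780464 to 76163175 counts. The labels do not tie the 28-month libraries to separate animals, so the p-values below measure only the spread between these samples, and the fit gave the single 18-month library the spread of the older ones. Replicate 2 stood apart: across 12523 genes, which are not independent replicates, its log2 CPM correlated at 0.930 and 0.931 with replicates 1 and 3. Between replicates 1 and 3 the value was 0.982. Set against the 18-month sample, replicate 1 gave 0.958, replicate 3 gave 0.952 and replicate 2 gave 0.950. By this measure replicate 2 was less like the other 28-month samples than the 18-month sample was. Confidence intervals cover counting error only.

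Complex I takes electrons from NADH, passes them along a chain of iron-sulfur clusters to ubiquinone and pumps protons across the inner mitochondrial membrane. Its matrix arm holds the flavin, the clusters and the quinone site in core subunits of nuclear origin, and its membrane arm is built around core subunits encoded by the mitochondrial genome. Accessory subunits surround both arms, and assembly factors are needed to build the complex without being part of it. Muscle fibres depend on it for oxidative ATP production.

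The Nduf genes were abundant and together took 0.836, 0.837 and 0.722% of all counts in the 28-month libraries (replicates 1, 2 and 3) and 0.651% in the 18-month one. Their summed level after TMM scaling was 9538, 6521 and 8043 CPM in the 28-month libraries and 6578 CPM in the 18-month one. On this scale the 18-month sum lay inside the 28-month range, just above replicate 2. By share of all counts the 18-month library lay below every 28-month library. The TMM factors were 0.877, 1.28 and 0.897 for the 28-month libraries and 0.990 for the 18-month one. The mean of the 28-month sums was 1.22 times the 18-month sum, 1.11 times without replicate 1 and 1.34 times without replicate 2. Per kilobase of exon, mean levels over the 4 libraries were among the highest in Ndufa4, at 434 CPM per kilobase, and in Ndufb9, at 413. The lowest that passed the count filter were Ndufa4l2 at 2.17 CPM per kilobase, Ndufab1 at 2.19 and Ndufaf2 at 2.84. Exon lengths are those of GENCODE M21, which for some members has more bins than were counted. It has 11 bins against 4 counted in Ndufaf2 and 16 against 4 in Ndufa4, so the lengths can include exon that was not counted. Per kilobase of the longest coding transcript, a scale added after the data were seen, Ndufa4 had 983 CPM per kilobase and Ndufb9 605, and Ndufaf8 (4.18) took the place of Ndufaf2 among the lowest. Ndufa11b, a processed pseudogene with a name like that of Ndufa11, had 1 count in replicate 2 and 0 in the other libraries, each of which allows up to 3 counts. It failed the filter of a mean count of at least 10, which the other 46 members passed.

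**Figure D1:**
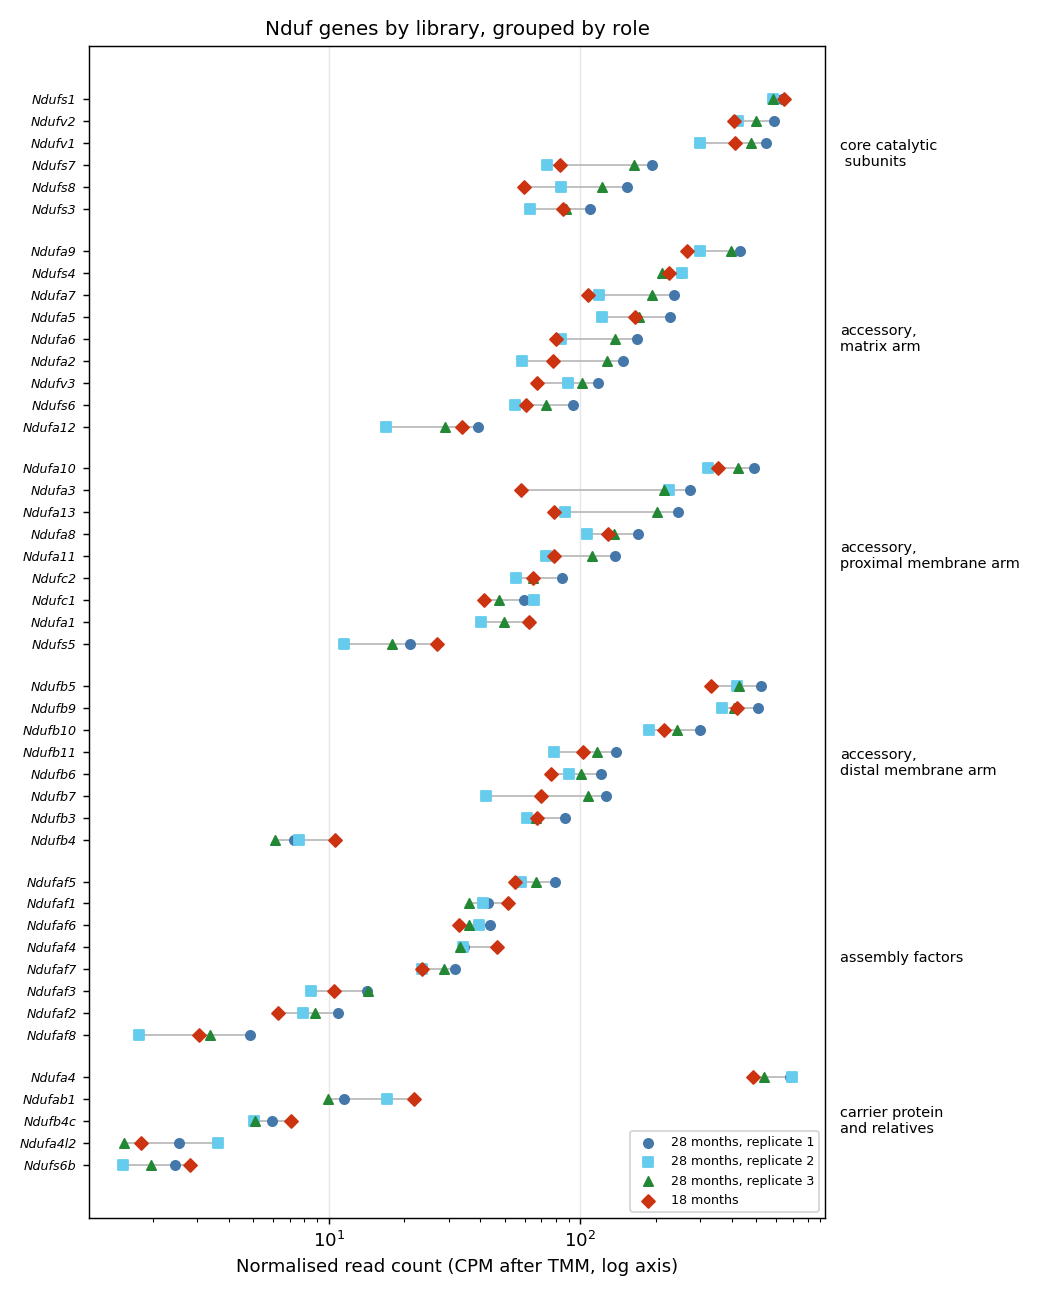
Level of 45 Nduf genes that passed the count filter in each library, in CPM after TMM scaling on a log axis, grouped by role (circles, squares and triangles: 28-month replicates 1, 2 and 3; diamonds: the 18-month library). Levels are per gene and not per length. In 34 of the 45 genes replicate 2 lies below both other 28-month libraries, and in 16 the 18-month value lies below all of them.

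Most Nduf genes were higher in estimate at 28 months, but none passed the edgeR quasi-likelihood test on all 4 libraries. Of the 46 members tested, 0 reached a Benjamini-Hochberg adjusted p under 0.05 (0.0% of all 15376 units tested did), and 1, Ndufa3, had an unadjusted p under 0.05 (2.17%, against 4.9% of all units). The DESeq2 Wald test called 1 member, Ndufa3, where it called 0.202% of all units, and limma voom called 0. The log2 difference, 28 minus 18 months, was above 0 in 36 of 46 members (78.3%, against 54.4% of all units), with a median of 0.25 against 0.06 over all units. Without 28-month replicate 1, 26 members lay above 0 (56.5%, against 54.3% of all units) and the median was 0.09, against 0.06 over all units; without replicate 2 the median was 0.37, against 0.03. The 18-month value lay below every 28-month value in 16 members (34.8%, against 25.4% of all units), above every one in 8 (17.4%, against 26.4%) and among them in 22. In bulk tissue, fewer cells of a type and less RNA per cell cannot be told apart.

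The core catalytic subunits, which bind the flavin and the iron-sulfur clusters, summed to 3508, 2250 and 3082 CPM in the 28-month libraries and 2559 CPM in the 18-month one. Of the 7, 6 had a positive log2 difference, with a median of 0.28, which was 0.11 without replicate 1 and 0.43 without replicate 2. Ndufs8, which carries iron-sulfur clusters near the end of the chain, measured 154, 84.1 and 122 CPM in the 28-month libraries and 59.6 CPM in the 18-month one; the estimated log2 difference was 1.01 ± 0.43 (SE; edgeR adjusted p 0.859). All 28-month values of Ndufs8 were above the 18-month value. Ndufs7, which holds the last cluster before ubiquinone, measured 193, 73.8 and 163 CPM against 83.1 CPM (0.79 ± 0.60), and here replicate 2 lay below the 18-month library. Ndufv2, an iron-sulfur protein next to the flavin subunit, measured 587, 423 and 497 CPM against 409 CPM (0.30 ± 0.36), with no overlap of the ages but little distance between replicate 2 and 18 months. Ndufs1, the largest subunit, was nearly level across the libraries, at 636, 583 and 582 CPM in the 28-month libraries and 642 CPM in the 18-month one. Ndufv1, the flavin and NADH binding subunit, measured 546, 299 and 478 CPM against 412 CPM, so the 18-month value lay among the others.

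Accessory subunits of the matrix arm had the highest median log2 difference of the 6 role groups, 0.50, with 8 of 9 members positive. Without replicate 1 this median was 0.26. They summed to 1715, 1097 and 1438 CPM in the 28-month libraries and 1085 CPM in the 18-month one. Ndufv3, a small partner of the flavin subunits, measured 117, 89.6 and 101 CPM against 67.5 CPM (log2 difference 0.61 ± 0.31). Ndufa7 measured 236, 118 and 192 CPM against 107 CPM (0.77 ± 0.47), and Ndufa6, which belongs to a family of small LYR-motif proteins, measured 169, 84.1 and 137 CPM against 79.9 CPM (0.70 ± 0.47). In all of these the 18-month library was lowest, as in 25.4% of all units, and each had an edgeR adjusted p of 0.859. In Ndufa7 and Ndufa6 replicate 2 lay close to the 18-month library. Ndufs4, which is needed for a stable matrix arm and whose loss causes a mitochondrial disease in humans and mice, was similar in every library, at 252, 253 and 210 CPM against 225 CPM. Ndufa12, the lone member of this group with a negative estimate, measured 39.3, 16.8 and 28.9 CPM against 33.9 CPM (-0.26 ± 0.49); it was named after its values were seen.

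Among the accessory subunits of the proximal membrane arm, next to the matrix arm, Ndufa3 had the largest log2 difference of all 46 members tested. Ndufa3 (ENSMUSG00000035674, GRCm38 chr7:3617373-3620327, + strand), a small membrane subunit, measured 272, 224 and 215 CPM in 28-month replicates 1, 2 and 3 and 58.3 CPM at 18 months. The 28-month libraries were close to each other, at 237 ± 30.2 CPM (SD, n = 3), and far above the 18-month library. The log2 difference was 2.03 ± 0.35, which did not pass by edgeR (adjusted p 0.859) and did by DESeq2 (adjusted p 4.95e-05). Ndufa13, also known as GRIM-19, measured 244, 86.5 and 202 CPM against 78.2 CPM (1.18 ± 0.65), with replicate 2 beside the 18-month library. Ndufs5, a subunit on the intermembrane face, ran the other way, at 21.1, 11.5 and 17.9 CPM against 26.9 CPM (-0.68 ± 0.38). Ndufa10, a kinase-like subunit, measured 491, 322 and 423 CPM against 352 CPM (0.23 ± 0.38) and overlapped between the ages. As a group 7 of 9 members were positive, with a median of 0.23 (0.08 without replicate 1 and 0.40 without replicate 2) and sums of 1540, 985 and 1268 CPM in the 28-month libraries and 891 CPM in the 18-month one.

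Accessory subunits of the distal membrane arm had a median log2 difference of 0.14, with 7 of 8 members positive. The median turned to -0.04 without replicate 1 and was 0.34 without replicate 2, so its direction rested on replicate 1. They summed to 1808, 1254 and 1473 CPM in the 28-month libraries and 1293 CPM in the 18-month one. Ndufb5 measured 523, 421 and 426 CPM against 330 CPM (0.47 ± 0.34), and Ndufb6 measured 120, 89.9 and 100 CPM against 76.8 CPM (0.43 ± 0.31). Both were lowest at 18 months, as were 25.4% of all units. Ndufb4 was the exception, at 7.28, 7.64 and 6.11 CPM against 10.6 CPM (-0.60 ± 0.30). The joined units that hold Ndufb2 and Ndufb8 measured 87.1, 68.9 and 64.8 CPM against 63.3 CPM, and 864, 534 and 704 CPM against 436 CPM, in the same library order.

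The 8 assembly factors named Nduf stood at far lower levels, with sums of 262, 214 and 228 CPM in the 28-month libraries and 229 CPM in the 18-month one. Of these, 6 had a positive log2 difference (median 0.25, 0.14 without replicate 1 and 0.42 without replicate 2). Ndufaf4 was almost the same in the 28-month libraries, at 34.4, 34.2 and 33.2 CPM, and higher at 18 months, at 46.8 CPM (-0.46 ± 0.24). Ndufaf1, a partner of the complex that assembles the membrane arm, measured 42.8, 40.9 and 36.0 CPM against 51.7 CPM (-0.37 ± 0.26). Ndufaf2, a chaperone for a late stage of assembly, went the opposite way at 10.8, 7.89 and 8.80 CPM against 6.27 CPM (0.55 ± 0.34). None of these 3 genes, named for their smallest p, overlapped between the ages, and each had an edgeR adjusted p of 0.859. Over all units the 18-month value lay below every 28-month value in 25.4% and above every one in 26.4%.

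A last group holds the mitochondrial acyl carrier protein and genes related to the others by name. Ndufab1, the carrier protein, which serves fatty acid synthesis as well as complex I, measured 11.5, 17.1 and 9.96 CPM in the 28-month libraries and 21.8 CPM in the 18-month one (-0.77 ± 0.37). Ndufa4, named for complex I but described since as a subunit of cytochrome oxidase, measured 683, 693 and 535 CPM against 487 CPM, lowest at 18 months. Ndufa4l2, a relative of Ndufa4 that responds to low oxygen, measured 2.53, 3.64 and 1.54 CPM against 1.8 CPM. Ndufb4c, at 5.93, 5.03 and 5.10 CPM against 7.11 CPM (-0.41 ± 0.31), and Ndufs6b, at 2.46, 1.52 and 1.97 CPM against 2.81 CPM (-0.51 ± 0.47), are processed pseudogenes that resemble Ndufb4 and Ndufs6 in sequence. In both the 18-month library was highest, as in 26.4% of all units. The median of the 5 tested was -0.41.

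**Figure D2:**
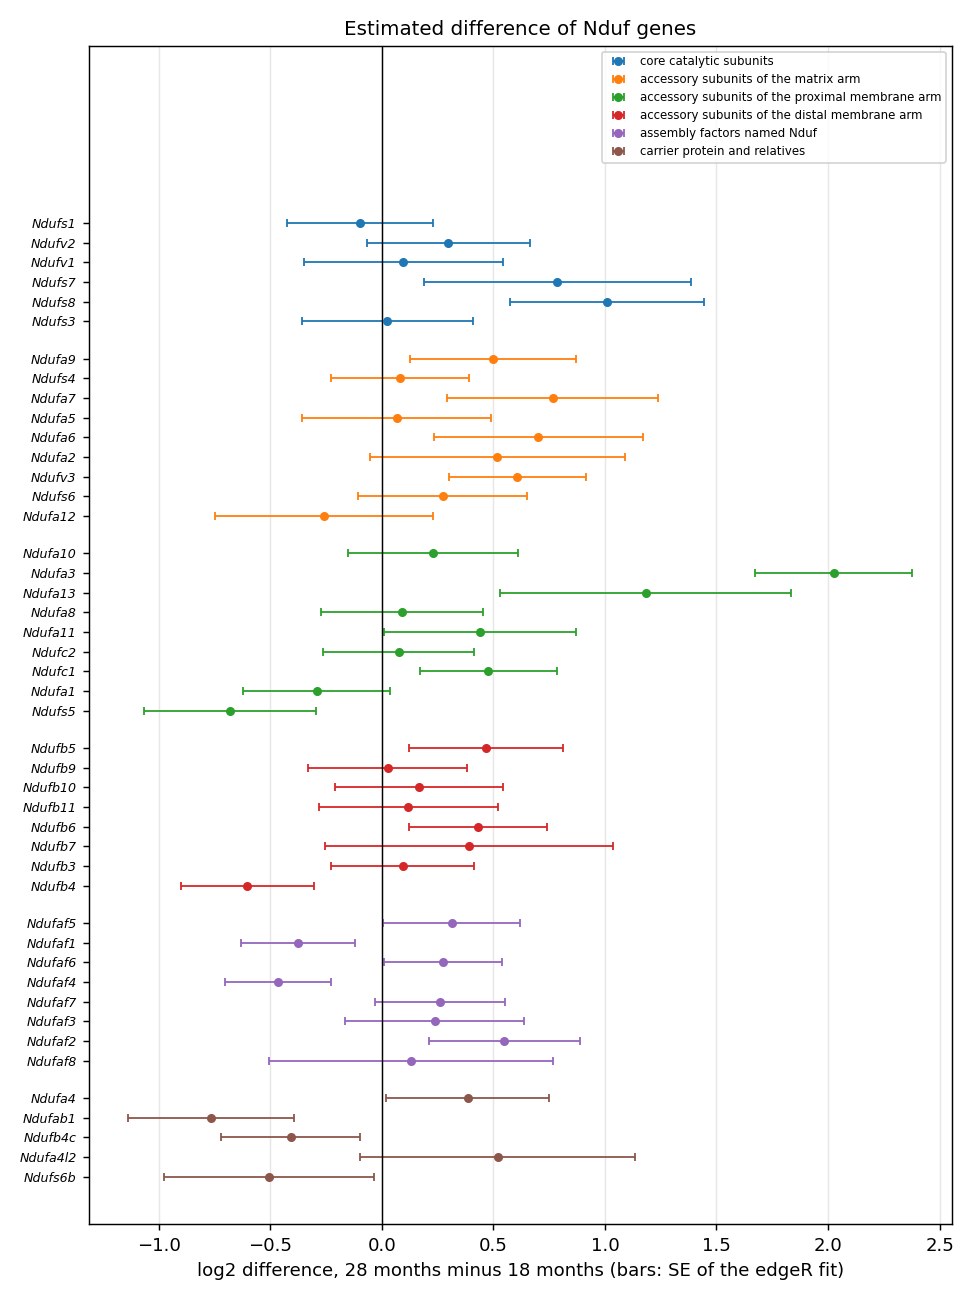
Estimated log2 difference, 28 minus 18 months, of 45 Nduf genes tested, with bars of 1 SE from the edgeR fit and colours for the role groups. Ndufa3 stands furthest to the right at 2.03 and Ndufab1 furthest to the left at -0.77, and no gene passed the test after adjustment.

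Several members have a near-identical copy elsewhere in the genome, among them some of the low and negative ones. Transcripts in the GENCODE M21 annotation were compared by BLAST, and 4 subunits matched a copy at 99% identity or more over at least 300 bases, limits chosen after the data were seen. These were Ndufb4 (Ndufb4c, 100% over 390 bases), Ndufab1 (Gm4459, 99.8% over 468 bases), Ndufa12 (Gm15920, 99.5% over 402 bases) and Ndufs5 (BC002163, 99.4% over 319 bases). All 4 had a negative log2 difference (median -0.64) and mean levels of 7.92 to 29.7 CPM, while the other 30 subunits had at least 53.5 CPM and 28 positive differences. The copies had counts of their own: Gm15920 measured 51.8, 22.7 and 38.4 CPM in the 28-month libraries and 42.8 CPM in the 18-month one, and BC002163 measured 44.4, 25.7 and 35.1 CPM against 49.2 CPM, both above the subunit they resemble. At the looser limits of 95% over 100 bases 4 more subunits had a copy: Ndufs3 (98.6% over 792 bases), Ndufb11 (96.9% over 456 bases), Ndufb3 (96.8% over 282 bases) and Ndufs6 (95.8% over 287 bases). These 4 are among the other 30, at mean levels of 70.6 to 109 CPM, and all had a positive log2 difference (0.03 to 0.27). How reads that match both a subunit and its copy were counted is not given in the sources used here, and the part of the copies in these levels and differences was not tested. Exonic sequence is also shared between Ndufa13 and Tssk6 (375 bases) and between Ndufb6 and Smim27 (257 bases). The same holds for Ndufb5 and Mrpl47 (216 bases), Ndufb9 and Gm49356 (202 bases) and Ndufs1 and Ino80dos (147 bases). Shorter stretches are shared by Ndufab1 and Gm44986 (125 bases) and by Ndufb11 and Rbm10 (117 bases). How such reads were counted is not given in the sources used here.

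Replicate 2 lay apart from the other 28-month libraries in most members. It was the lowest of the 3 in 35 of 46 members (76.1%, against 43.0% of all units), and replicate 1 was the highest in 39 (84.8%, against 36.0%). These positions are after TMM scaling, whose factor was 1.28 for replicate 2 and 0.877 and 0.897 for replicates 1 and 3. By share of all counts the summed Nduf level of replicate 2 was not below theirs, at 0.837% against 0.836 and 0.722%. How many members keep this position without the scaling was not tested. With replicate 2 left out, edgeR called 12 members (26.1%, against 11.7% of all units), in a fit that takes its spread from replicates 1 and 3 alone. Higher at 28 months were 11 (23.9%, against 7.39% of all units): Ndufa3 (2.08), Ndufa13 (1.53), Ndufs8 (1.23), Ndufs7 (1.12), Ndufa7 (1.02), Ndufa6 (0.96), Ndufa2 (0.84), Ndufb7 (0.76), Ndufv3 (0.72), Ndufa11 (0.67) and Ndufa9 (0.66), with log2 differences in brackets. Lower was 1 (2.17%, against 4.35% of all units), Ndufab1 (-1.01). At an unadjusted p under 0.05 without replicate 2 were 25 members (54.3%, against 31.3% of all units). Called without replicate 1 were 0 members (0.013% of all units), and without replicate 3 also 0 (0.0065%), with 1 member at an unadjusted p under 0.05 in each.

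After TMM scaling, replicate 2 and the 18-month library lay below the mean of replicates 1 and 3 in most members. They tended to lie further below in members rich in G and C. Over 44 members with a known longest coding transcript, whose GC content ran from 39.5 to 60.4%, the log2 difference of replicate 2 from the mean of replicates 1 and 3 had a median of -0.47 and correlated with GC content at Pearson's r = -0.54 and Spearman's rho = -0.62. For the 18-month library the median was -0.37, with r = -0.45 and rho = -0.43. These are descriptions over genes that share the same 4 libraries and the same baseline. They have no counterpart over all units, so they do not show a trait particular to Nduf genes. Of the fast fibre markers, whose sums are given above, 7 of 9 were positive in the fit on all 4 libraries (median log2 difference 0.39). Macrophage markers, all 8 positive, summed to 108, 208 and 194 CPM in the 28-month libraries and 70.6 CPM in the 18-month one; white adipocyte markers, all 7 positive, to 5011, 5076 and 4238 CPM against 3535 CPM; and Schwann cell markers, all 7 negative, to 183, 96.3 and 149 CPM against 325 CPM. None of these markers was at 0 in all libraries. The part of base composition and of these cell types in the Nduf differences was not tested.

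**Figure D3:**
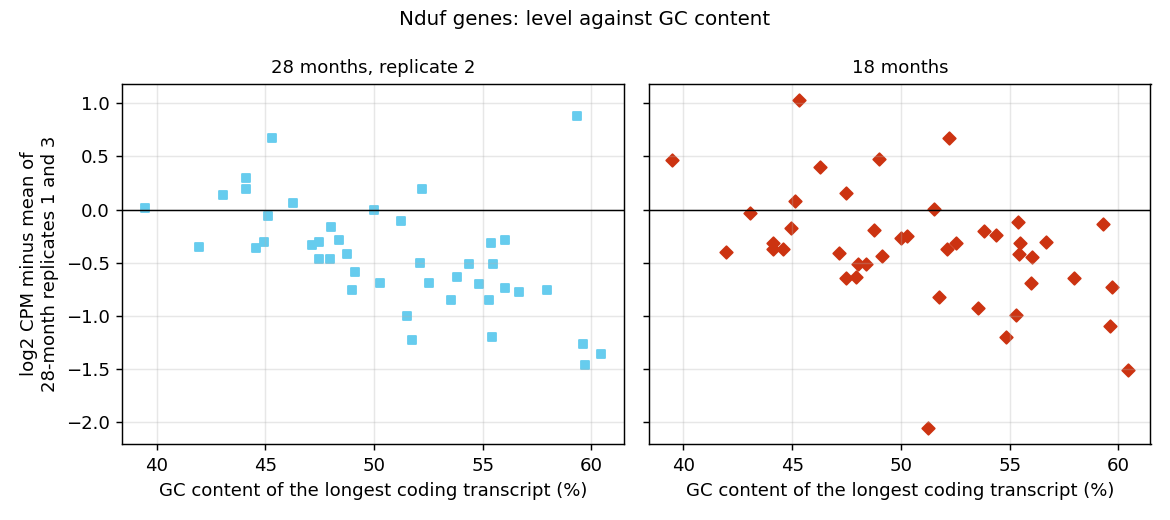
Level of 43 Nduf genes in 28-month replicate 2 (left) and in the 18-month library (right), as log2 CPM minus the mean of 28-month replicates 1 and 3, against the GC content of the longest coding transcript in percent. In both panels 35 genes lie below 0, and genes of high GC content tend to lie lowest. CPM are after TMM scaling.

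The rest of the pathway gave no called gene either. Of 13 further assembly factors without an Nduf name, 12 were matched, and 8 had a positive log2 difference (median 0.19). Tmem186 measured 10.8, 9.46 and 10.7 CPM in the 28-month libraries and 15.4 CPM in the 18-month one (-0.57 ± 0.26), and Foxred1, an oxidoreductase-like factor, measured 44.5, 36.2 and 34.6 CPM against 25.9 CPM (0.57 ± 0.29). Neither overlapped between the ages. Over all units the 18-month value lay below every 28-month value in 25.4% and above every one in 26.4%. The core subunits from the mitochondrial genome, partners of the Nduf proteins in the membrane arm, had negative estimates. mt-Nd5 measured 6151, 3808 and 6026 CPM in the 28-month libraries and 13994 CPM in the 18-month one (-1.39 ± 0.52), and mt-Nd6 measured 29.6, 16.5 and 28.9 CPM against 76.8 CPM (-1.62 ± 0.38). The 18-month value lay above every 28-month value in both, and also in mt-Nd3 and in the joined units that hold mt-Nd1, mt-Nd2 and the pair mt-Nd4l and mt-Nd4. The same position was found in 26.4% of all units. The edgeR adjusted p was 0.859 for mt-Nd5 and mt-Nd6. Median log2 differences of nuclear subunits were 0.22 for complex II, 0.12 for complex III, 0.33 for complex IV and 0.28 for complex V. Perm1, a regulator of oxidative metabolism in muscle, measured 79.7, 52.7 and 58.7 CPM against 128.8 CPM (-1.02 ± 0.32), and Ppargc1a, a coactivator of mitochondrial biogenesis, measured 28.8, 30.6 and 25.5 CPM against 38.5 CPM (-0.44 ± 0.25). Ppargc1b, a related coactivator, ran the other way at 3.00, 2.42 and 2.05 CPM against 1.41 CPM (0.82 ± 0.48), lowest at 18 months.

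Exon usage gave calls where gene sums gave none. A bin's share of the tested counts of its gene was compared between the ages with edgeR diffSpliceDGE, and 9 of the 44 members with several tested bins were called by the Simes test (20.5%, against 3.54% of all 11000 genes tested). By single bin, 16 of 412 were called (3.88%, against 0.366% of all bins). Of these 12 had a lower share at 28 months (0.158% of all bins were called in that direction) and 4 a higher share (0.208%). Among them were Ndufa10, Ndufa3, Ndufa5, Ndufs1, Ndufv1, Ndufa7, Ndufaf1 and Ndufb10. Without replicate 2, 21 members were called (47.7%, against 30% of all genes) and 51 bins (12.4%, against 6.85% of all bins). Without replicate 3 there were 7 members (15.9%, against 1.49%) and 9 bins (2.18%, against 0.156%). Without replicate 1 there were 7 members (15.9%, against 2.05%) and 11 bins (2.67%, against 0.205%).

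Positions were given to the bins of 28 members, those with as many bins as the flattened GENCODE M21 annotation (GRCm38), and equal numbers do not show that the placement is right. In 6 of the 9 called members, 10 called bins could be placed. The bins with a lower share at 28 months lay in introns: the annotation has all 6 of them only in transcripts of the retained-intron class. The other 4 lay at or near the 5′ end of Ndufa3, Ndufa10 and Ndufaf1.

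Ndufa5, an accessory subunit of the matrix arm, had 289 counts in its bin 5 at 18 months, against 1, 1 and 0 in 28-month replicates 1, 2 and 3. This 91-base intronic piece (chr6:24522776-24522866, - strand) took 2.68% of the gene's tested counts at 18 months (95% exact binomial interval 2.38 to 3.00%) and at most 0.00840% in a 28-month library (edgeR adjusted p 9.86e-09). In Ndufa10, bin 7 (252 bases, chr1:92460466-92460717, - strand) had 1, 14 and 2 counts at 28 months and 161 counts at 18 months. Its share was 0.704% at 18 months (0.600 to 0.821%) and at most 0.0446% at 28 months (adjusted p 3.45e-10). In both pieces the 18-month share was far above every 28-month share. Ndufs1 had 3 such bins. Bin 16 had 2, 3 and 3 counts against 74 (adjusted p 2.11e-07), bin 5 had 4, 4 and 2 against 56 (0.000106), and bin 10 had 0, 44 and 0 against 86 (0.00119). In bin 10 replicate 2 also held counts, and the call was lost without replicate 1 (0.142) and without replicate 3 (0.225), by the same edgeR test. Ndufb10, a subunit of the distal membrane arm, had 6, 51 and 5 counts in bin 5 against 144 (share 1.03% at 18 months, 0.865 to 1.21%; adjusted p 0.0191), again with replicate 2 between the others and 18 months. This call too was lost without replicate 1 (0.573) and without replicate 3 (0.608).

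The 3′ ends of such introns are shown because they join a stretch that spliced mRNA lacks to the exon that follows it. Counts were given per whole bin, so where the reads lay within a bin is not known. Each sequence is read 5′ to 3′ on the gene's strand (the - strand in all 4), with the last 70 bases of the intronic bin followed by the first 20 bases of the next exon. The capitals mark the AG of the 3′ splice site. The letters come from GENCODE M21 transcripts on GRCm38.
Ndufa5 chr6:24522756-24522845: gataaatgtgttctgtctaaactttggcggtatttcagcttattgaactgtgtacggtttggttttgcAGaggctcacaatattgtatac
Ndufa10 chr1:92460446-92460535: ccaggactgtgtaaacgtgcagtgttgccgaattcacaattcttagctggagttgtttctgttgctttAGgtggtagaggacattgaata
Ndufs1 chr1:63151692-63151781: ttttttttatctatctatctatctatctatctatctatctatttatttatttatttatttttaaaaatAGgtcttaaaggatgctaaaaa
Ndufb10 chr17:24722501-24722590: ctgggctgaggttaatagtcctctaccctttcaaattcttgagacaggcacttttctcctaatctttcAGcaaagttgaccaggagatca
In each the intron closes with AG, as introns of the common class do, and the exon follows without a gap.

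The bins held by retained-intron transcripts alone were then counted in all placed members, a class chosen after the data were seen. Of 16 such bins tested in 8 members, 6 were called (37.5%, against 9.18% of such bins in all placed genes), all lower at 28 months. The 18-month share was above every 28-month share in 11 (68.8%, against 40.7%). Of the 231 other bins of placed members, 4 were called (1.73%, against 0.285% of such bins in all placed genes). In these other bins too the 18-month share was more often above every 28-month share, in 86 (37.2%, against 22.0%). Summed over the 11 members that hold any such bin, whether tested or not, they took 0.162, 0.473 and 0.139% of those genes' counts in the 28-month libraries and 1.11% in the 18-month one (1.05 to 1.17%). In this sum replicate 2 was again the nearest to the 18-month library. Of its 760 counts in these bins, however, 390 lay in Ndufab1, where replicate 2 was the farthest from the 18-month library. In 7 of the 11 members the 18-month share was the highest. In Ndufa12, Ndufaf5 and Ndufaf8 such bins held at most 4 counts in any library. The same count by gene was not made over all placed genes, so this number has no background. Ndufs7 had 0.791, 1.08 and 0.233% against 2.35%, and Ndufb7 had 0.119, 0.755 and 0.139% against 1.84%. Ndufab1 ran the other way, at 6.53, 23.4 and 8.65% against 5.35%.

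In 3 called members the bins could not be placed, so their kind is unknown, and Ndufv1 and Ndufa7 are described here. Ndufv1 had 4 called bins, all lower at 28 months. Bin 17 of Ndufv1 had 2, 25 and 3 counts against 186 (0.693% at 18 months, edgeR adjusted p 3.15e-07), bin 23 had 4, 13 and 4 against 80, and bin 12 had 0, 10 and 2 against 45. Ndufa7 bin 15 had 18, 25 and 22 counts against 179 (2.58% at 18 months, adjusted p 1.30e-05). In each the 18-month library was the highest, and in each replicate 2 was the highest of the 28-month counts. Without replicate 3 the calls were lost for Ndufv1 bin 23 (0.230), Ndufv1 bin 12 (0.617) and the fourth Ndufv1 bin, bin 21 (1.00). Without replicate 1 they were lost for Ndufv1 bin 12 (0.265) and bin 21 (0.432).

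**Figure D4:**
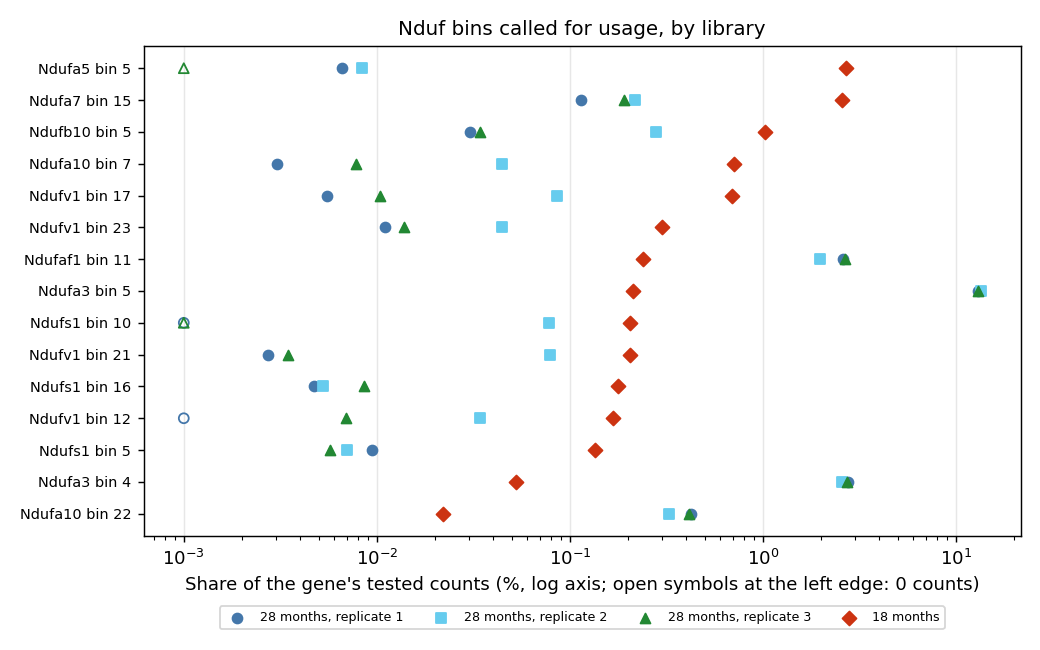
Share of 15 called Nduf bins in the tested counts of their genes, in percent on a log axis, in each library (circles, squares and triangles: 28-month replicates 1, 2 and 3; diamonds: the 18-month library; open symbols at the left edge: 0 counts). In 11 bins the 18-month library is highest, and in the 4 bins of Ndufa3, Ndufa10 bin 22 and Ndufaf1 bin 11 it is lowest.

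Ndufa3 showed the opposite pattern, at its start. Bin 5, 17 bases at the end of the first exon (chr7:3617391-3617407, + strand), had 8 counts at 18 months, against 2353, 2930 and 1677 in 28-month replicates 1, 2 and 3. It took 13.1 ± 0.260% (SD, n = 3) of the gene's tested counts at 28 months and 0.211% at 18 months (0.0911 to 0.415%), with an edgeR adjusted p of 3.03e-09. The adjoining bin 4 (5 bases) had 502, 558 and 353 counts against 2 (2.68 ± 0.114% against 0.0527%, adjusted p 4.53e-07). The 28-month libraries, replicate 2 included, were nearly the same in both bins, and the 18-month library held almost no counts there. The sequence around the end of this exon is shown because it holds the start codon, here in capitals, and because the called bins 4 and 5 cover its first 22 bases; the intron begins with the last 6, gtaagt.
Ndufa3 chr7:3617386-3617413: gccaagaacaagATGgccgggagtaagt
Over bins with more than 30 counts in every library, and in bin 5, the ratio of the 28-month mean to the 18-month CPM fell from the first exon towards the 3′ end. It was 252 in bin 5, 5.04 in the second exon (bin 7), 3.61 in bin 11, 3.22 in bin 13, 2.94 in bin 14, 2.50 in bin 15, 1.88 in bin 16 and 1.29 in bin 17 at the 3′ end. The remaining bins had fewer counts and did not all follow this order. The ratio was 10.4, 24.6, 36.7 and 207 in bins 1, 2, 3 and 4, each with 2 counts at 18 months, and 11.8 in bin 6. It was 2.56 in bin 8, 1.49 in bin 9, 1.20 in bin 10 and 1.82 in bin 12, and in bins 9, 10 and 12 the 18-month value lay inside the 28-month range. With the called bins left out, the gene's log2 difference was 1.78.

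**Figure D5:**
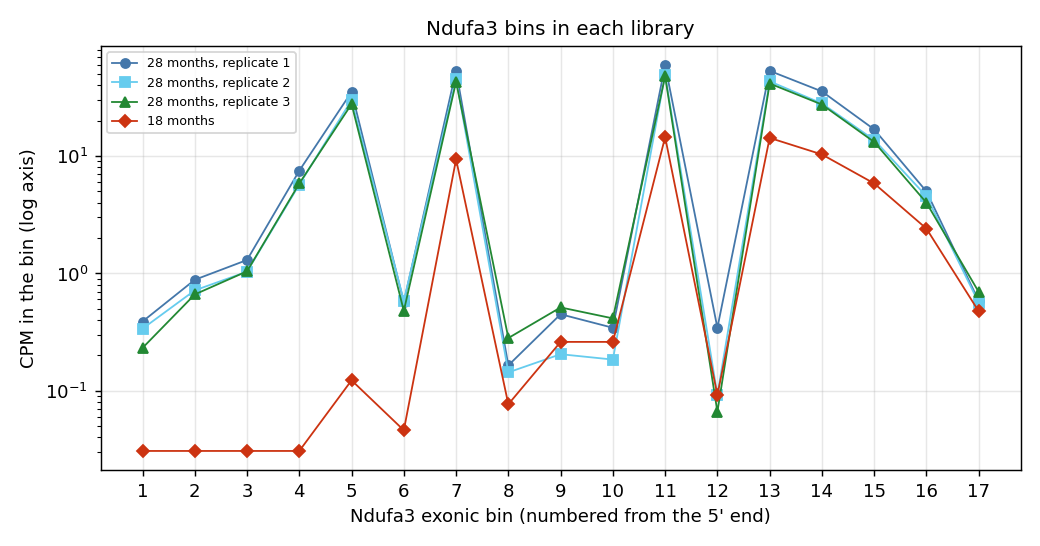
CPM of each exonic bin of Ndufa3 in each library, on a log axis, with bins numbered from the 5′ end of the gene. The curves of the 28-month libraries lie together, and the 18-month curve lies below them in most bins, furthest in bins 4 and 5, where it holds 2 and 8 counts; in bins 9, 10 and 12, of few counts, it lies among them.

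Ndufa10 and Ndufaf1 also had a called bin near the 5′ end with a higher share at 28 months. Ndufa10 bin 22 (85 bases, chr1:92473663-92473747, - strand), its first tested bin, had 138, 102 and 105 counts against 5, or 0.386 ± 0.0530% (SD, n = 3) against 0.0219% at 18 months (edgeR adjusted p 0.000174). The call was lost without replicate 3, at 0.0550. Ndufaf1 bin 11 (19 bases, chr2:119662780-119662798, - strand) had 73, 78 and 57 counts against 8, or 2.41 ± 0.377% against 0.240% (adjusted p 0.0110), and was lost without replicate 1 (0.0650) and without replicate 3 (0.147).

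A lower 18-month share at the 5′ end and a higher one at the 3′ end were common over all genes. In 23 of the 44 members tested, the 5′-most tested bin had an 18-month share below every 28-month share (52.3%, against 63.3% of all genes), and in 6 it lay above every one (13.6%, against 12.1%). The last tested bin at the 3′ end had an 18-month share above every 28-month share in 36 (81.8%, against 85.7% of all genes) and below every one in 0 (2.79% of all genes). Of these end bins 1 was called at the 5′ end (1.56% of all such bins) and 0 at the 3′ end (0.0182%). The part of this shift towards 3′ ends in the Ndufa3, Ndufa10 and Ndufaf1 calls was not tested.

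Promoters of 38 members could be matched by symbol in the RefSeq table (GRCm38.p6, 250 bases before to 50 after each gene's start). They were searched on both strands for motifs bound by regulators of respiratory genes, and a match is a description of the letters alone. The NRF1 motif, which is the same on both strands but for its central bases and is in capitals in the windows below, occurred in 9 of 38 (23.7%, against 5.19% of all promoters). The YY1 letters AAGATGGC occurred in 7 (18.4%, against 3.19%), the ERR letters TCAAGGTCA in 0 (0.466% of all), the ETS letters CCGGAAGT in 1 (2.63%, against 4.31%) and CCAAT in 13 (34.2%, against 41.1%). None of these strings contains another, and the YY1 letters hold an ATG. Windows with the NRF1 motif in capitals, read in the gene's direction, were the following; the genes shown were chosen after their values were seen.
Ndufa8 chr2:36049349-36049378, - strand: ctagagcagtGCGCTTGCGCgtcgctggag
Ndufaf4 chr4:24897960-24897989, + strand: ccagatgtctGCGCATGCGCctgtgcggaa
Ndufs5 chr4:123718265-123718294, - strand: gctgcttgctGCGCAGGCGCagacccgctg
Ndufa11 chr17:56717692-56717721, + strand: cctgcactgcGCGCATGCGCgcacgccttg
Ndufaf4 and Ndufs5 were in estimate lower at 28 months (-0.46 and -0.68) and Ndufa11 and Ndufa8 higher (0.44 and 0.09). Of the other members with the motif, Ndufa5, Ndufa6, Ndufaf5 and Ndufs6 were higher (0.07, 0.70, 0.31 and 0.27) and Ndufb4 lower (-0.60). The members with these letters thus did not all share a direction. Windows with the YY1 letters, in capitals, lay just after the start of the gene, where the letters overlap an ATG.
Ndufa3 chr7:3617385-3617412, + strand: cgccaagaacAAGATGGCcgggagtaag
Ndufa9 chr6:126849098-126849125, - strand: attgtgggagAAGATGGCggccgccgtc
Ndufs7 chr10:80249463-80249490, + strand: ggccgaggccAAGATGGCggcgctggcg
Ndufaf8 chr11:120098934-120098961, + strand: ggcagggcccAAGATGGCggcgccctcg
In Ndufa3 the ATG within these letters is the start codon shown above, and the window covers called bins 4 and 5. The 4 genes had positive log2 differences, of 2.03, 0.50, 0.79 and 0.13 in the order shown, none of which passed the edgeR test. The other members with these letters, Ndufc1, Ndufs4 and Ndufs6, were also higher in estimate (0.48, 0.08 and 0.27). A positive estimate was found in 78.3% of all members tested, with or without the letters.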

How the data were processed

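The submitters' processing notes name bcl2fastq 1.8.3, TopHat2 2.0.4 and GRCm38 for the 4 muscle libraries. No counter, annotation release or strand setting is given in the sources used here. Each deposited table gives, for 1 library, raw counts by exonic bin. Bin names look like those of the DEXSeq script, which adds a read to every bin it overlaps, so gene sums count some reads repeatedly. Special entries that name no gene (3.36 to 5.20% of totals) were left out.

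Bins were summed per gene unit. The filter kept units with mean count 10 or more, which were tested with edgeR 4.0.16 (TMM, quasi-likelihood, Benjamini-Hochberg, adjusted p under 0.05), with 2 residual degrees of freedom, which the 28-month libraries alone supply. Bins passing the same filter were tested with diffSpliceDGE. CPM are after TMM. Positions came from GENCODE M21 and copies from BLAST 2.17.0 (at least 95% over 100 bases). Alternatives were DESeq2 1.42.0, limma 3.58.1, other filters and scalings, and leaving out each 28-month library. Scripts were tested on simulated data.

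Members and lists were chosen with earlier results of these data known. Named for expression were the 3 members of smallest p in each role, plus Ndufa3 and Ndufa10; for exon usage, each called member with up to 3 bins; of each pathway list, up to 3 genes by smallest p. Other members appear by level, or as said to be chosen after their values were seen. Marker lists beyond those in the text, with their median log2 differences, were slow fibres (-0.42), brown adipocytes (1.62, the value of Cox7a1, which is also on the complex IV list; Ucp1 had 4, 2, 0 and 0 counts), red blood cells (2.85; 378, 145 and 3785 CPM in 28-month replicates 1, 2 and 3 and 183 CPM in the 18-month library, so replicate 3 leads), fibroblasts (0.26) and endothelium (0.06); regulators of biogenesis had -0.28 and supercomplex and cristae factors -0.06. Results of 1 member are not reported here by name; counts and sums over members include it, and the plots leave it out.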

Additional observations from a re-analysis of the deposited data

How the results depend on the processing

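No paired analysis was possible because the labels link no 28-month library to the 18-month one, which is alone in its group. The 18-month group holds 1 library, so no value of that age has a replicate check. The count of members called for expression was 1 by the DESeq2 Wald test and ranged from 0 to 12 when 28-month libraries were left out, 12 without replicate 2. Members at an unadjusted p under 0.05 numbered 2 by DESeq2, 2 with library sizes taken without mitochondrial genes and the 20 most abundant units, and 1 to 25 when libraries were left out. For exon usage, leaving out libraries gave 7 to 21 members and 9 to 51 bins, and the gene-level F test gave 13 members. The cause was not tested; a fit without a library takes its spread from the remaining pair. The count of members above 0 ranged from 26 to 37 over all alternatives, the ratio of summed CPM, 28 to 18 months, from 1.22 to 1.23 over scalings and from 1.11 to 1.34 when libraries were left out (chosen after the data were seen). Medians of 5 role groups were lowest without replicate 1, and that of the distal membrane arm turned to -0.04. Of 200 alternatives run on 20 named genes, 1 changed sign (Ndufa12, whose log2 difference ran from -0.57 to 0.029 when libraries were left out, 0.029 without replicate 2) and 9 were called. Of 122 alternatives run on the 16 called bins, 109 were called and 0 changed direction, and 8 bins were called under every one that tested them. Depth limits bins of few counts, where a count of 0 allows up to 3.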
